A study of Mus musculus with 14 samples.

Results

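Wide WDR5 peaks were examined in mouse leukemia cells by chromatin immunoprecipitation followed by sequencing (ChIP-seq). The regions were chosen by their width in the DMSO WDR5 list and are its peaks on autosomes wider than 500 bp, counted from first to last base. They number 545 of 14289 autosomal DMSO WDR5 peaks, or 3.81%, and of 532629 peaks in the 10 lists of the series. They hold 14.1% of the autosomal length of their list, 0.441 of 3.13 Mb. The 7 equally wide peaks on other chromosomes were left out.

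The series mapped MLL1, WDR5 and H3K4me2, the dimethylated form of lysine 4 on histone H3. DMSO and MM-401 were given to MAF9 cells, which are mouse bone marrow cells transduced with the fusion MLL-AF9, for 2 days with MM-401 at 20 µM. EtOH and 4OHT were given to MAF9-transduced bone marrow cells of the genotype MLL1 flox/flox, ER-cre+/-, for 2 days with 4OHT at 400 nM. All 4 conditions therefore carried the fusion and differed in whether both floxed alleles and the Cre were present, so that a difference between DMSO and EtOH also compares 2 cell populations and their solvents. Neither strain and age nor the number of animals or cultures is stated in the sources used here. Each condition and antibody had 1 library and 1 peak list, MLL1 was mapped only in DMSO and MM-401, and the extent of Mll1 deletion under 4OHT could not be read from these lists.

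WDR5 is a scaffold subunit shared by the H3K4 methyltransferase complexes of the MLL and SET1 families, and MLL1 is one of their catalytic subunits. MM-401 prevents MLL1 from binding WDR5, and the ER-cre recombinase, once switched on by 4OHT, removes Mll1. H3K4me2 marks nucleosomes at active promoters and enhancers, and MLL-AF9 drives an acute myeloid leukemia in mice. Per the study, the MLL1 antibody recognised the C-terminal fragment of MLL1, which the fusion lacks.

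The lists gave positions and no read count, height or score. Absence here means that no peak was called, and the depth of all libraries was unknown. With 1 library per condition no test between conditions was possible, and each share is given with a 95% Wilson interval and each median with a 95% binomial interval. These intervals cover the counting of peaks only, and regions are not replicates of a condition. The autosomal lists of WDR5 held 14289 peaks in DMSO, 17067 in MM-401, 33974 in EtOH and 40439 in 4OHT, and a longer list has more chances to overlap. No annotation of the genome build of the files (mm9) was used, so regions are named by position and neither genes nor cell type markers were read.

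The widths of the members formed a long tail. They ranged from 525 to 2875 bp with a median of 625 bp and quartiles of 575 and 825 bp. Up to 750 bp there were 375 members, 78 were over 750 and up to 1000 bp, and 92 were wider than 1000 bp. Above 1000 bp the counts did not fall steadily. In steps of 250 bp there were 18, 16, 24 and 24 members up to 2000 bp, and 10 were wider still. The MM-401 list held 25 autosomal WDR5 peaks over 1000 bp, the EtOH list 101 and the 4OHT list 93. Over 1500 bp the DMSO list held 58 peaks, the MM-401 list 1, the EtOH list 25 and the 4OHT list 18. The class over 1000 bp was chosen after these widths had been seen.

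Wide DMSO WDR5 peaks were called again far more often than the DMSO WDR5 list as a whole. A wider peak has more room to be overlapped, so the overlap shares are in part set by the width rule. How large that part is was not tested. The MM-401 list overlapped 435 of 545 members, or 79.8% (76.2 to 83.0%), against 40.3% of all autosomal DMSO WDR5 peaks. The EtOH list overlapped 468, or 85.9% (82.7 to 88.5%), against 34.7%. The 4OHT list overlapped 426, or 78.2% (74.5 to 81.4%), against 30.3%. Coverage of the central base of a peak does not depend on this room. MM-401 WDR5 covered the centre of 59.3% of members, against 32.5% of all autosomal DMSO WDR5 peaks. For EtOH these shares were 64.6% and 24.8%, and for 4OHT 51.4% and 20.6%. Of the members, 322 were overlapped in all 3 lists (59.1%, background 10.8%) and 12 in none of them (2.20%, background 36.6%). The overlap shares rose with width already below the threshold. DMSO peaks over 300 and up to 500 bp were overlapped in 69.5% of cases by MM-401, 62.3% by EtOH and 51.2% by 4OHT. The centres of these peaks were covered at 57.5% by MM-401, 44.4% by EtOH and 32.3% by 4OHT. The MM-401 share was near the 59.3% of members, and at members up to 750 bp it was 52.8%.

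**Figure D1:**
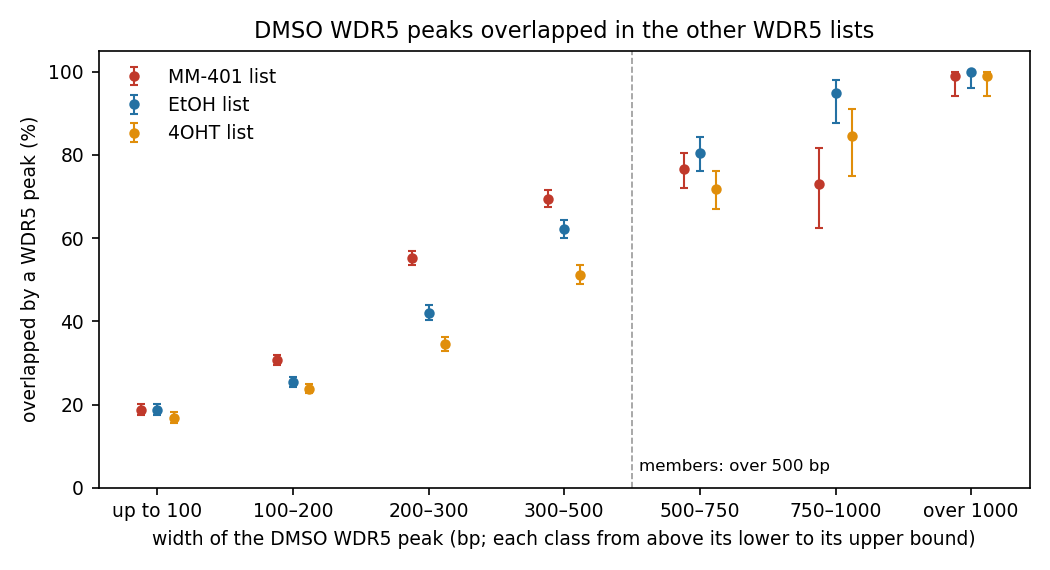
Percent of autosomal DMSO WDR5 peaks sharing at least 1 bp with a WDR5 peak of the MM-401, EtOH or 4OHT list (vertical axis) by width class in bp (horizontal axis), with 95% Wilson intervals as bars. The shares rose with width up to 500 bp in all 3 lists, and at members over 1000 bp 91, 92 and 91 of 92 were overlapped.

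The 92 members over 1000 bp were nearly always present. The MM-401 list overlapped 91 of them, the EtOH list 92 and the 4OHT list 91, and 90 were overlapped in all 3. The narrower members differed between lists. Up to 750 bp the EtOH list overlapped 80.5% (76.2 to 84.2%), the MM-401 list 76.5% (72.0 to 80.5%) and the 4OHT list 71.7% (67.0 to 76.1%). Over 750 and up to 1000 bp the MM-401 list overlapped 73.1% (62.3 to 81.7%), below the EtOH share of 94.9% (87.5 to 98.0%). The 4OHT share there was 84.6% (75.0 to 91.0%).

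Members and peaks on either side of the threshold had the following values. The 75 members just inside it, at 525 bp, were overlapped in 68.0% of cases by MM-401, 80.0% by EtOH and 64.0% by 4OHT. The 97 peaks just outside it, at 500 bp, were overlapped in 77.3%, 74.2% and 69.1% of cases. H3K4me2 of DMSO covered the centre of 72.0% of the former and 72.2% of the latter.

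Members absent from a list were mostly among the narrower ones. The 110 members without a WDR5 peak in the MM-401 list had a median width of 600 bp, and all 110 still had an MM-401 H3K4me2 peak over them. For 40 of them an MM-401 WDR5 peak lay within 2 kb. The EtOH list lacked 77 members, 31 of them with an EtOH peak within 2 kb, and the 4OHT list lacked 119, 54 of them with a 4OHT peak within 2 kb. A single member over 1000 bp was absent from MM-401, chr8:98424751-98426450, which measured 1700 bp in DMSO, 550 bp in EtOH and 300 bp in 4OHT. The widest of the 12 members absent from all 3 lists was chr13:4608026-4608950, of 925 bp, where the host H3K4me2 peak measured 1525 bp in DMSO, 1325 bp in MM-401 and 575 bp in EtOH, and none was called in 4OHT.

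Where a member was overlapped, its partner was usually narrower. Because members were chosen for their width in DMSO, narrower partners elsewhere are in part set by that choice, and these values are a description. The ratio of summed partner width to member width had a median of 0.57 in MM-401 (0.54 to 0.61), 0.66 in EtOH (0.62 to 0.71) and 0.58 in 4OHT (0.52 to 0.62). The partner was narrower than the member at 381 of 435 members in MM-401 (background 44.2%), at 395 of 468 in EtOH (48.3%) and at 364 of 426 in 4OHT (47.6%). A single partner peak over 500 bp remained at 156 members in MM-401 (background 7.03%), 181 in EtOH (13.3%) and 140 in 4OHT (12.4%).

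**Figure D2:**
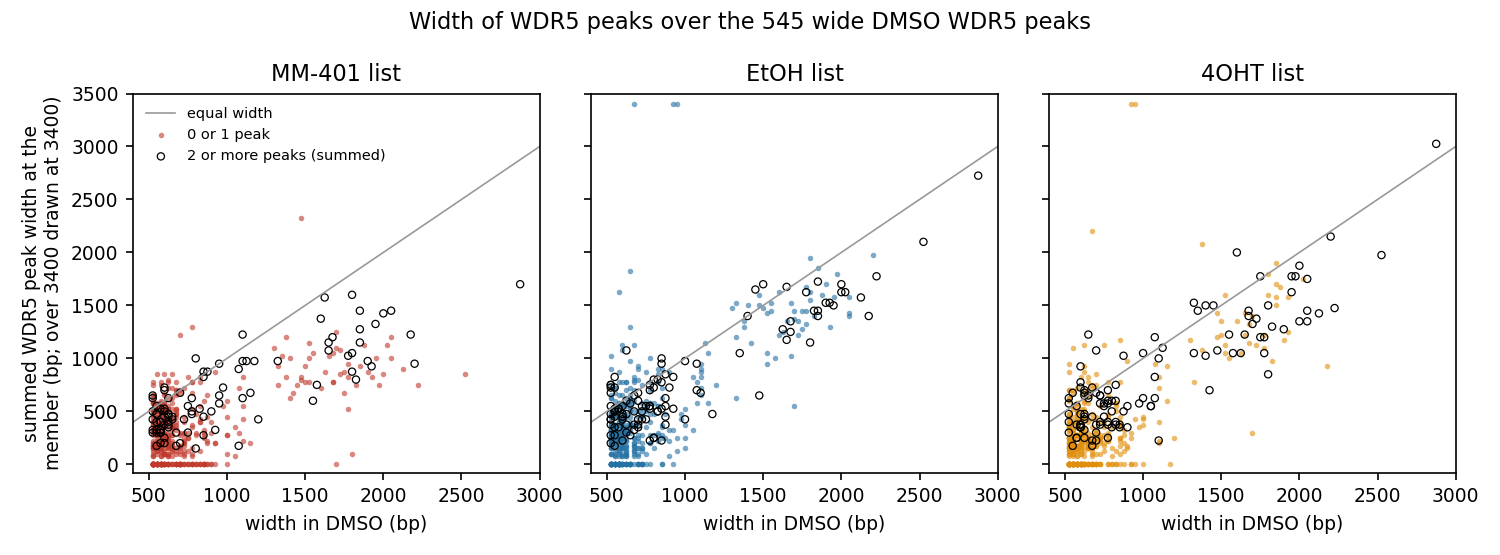
Summed width in bp of the WDR5 peaks over each of the 545 members in the MM-401, EtOH and 4OHT lists (vertical axis, 0 where none was called) against the member's width in DMSO in bp (horizontal axis). Each point is a member, open circles mark members under 2 or more peaks, and the line marks equal width; above 1000 bp the MM-401 points lie farther below the line than the EtOH and 4OHT points.

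The widest members separated the lists. At members over 1000 bp the median width was 1650 bp in DMSO, 925 bp in MM-401 (825 to 975), 1400 bp in EtOH (1300 to 1450) and 1225 bp in 4OHT (1150 to 1350). The ratio to the DMSO width was 0.56 in MM-401 (0.50 to 0.60), 0.80 in EtOH (0.78 to 0.83) and 0.78 in 4OHT (0.71 to 0.82). Neither MM-401 nor EtOH widths were used by the rule, and MM-401 minus EtOH was −400 bp (−500 to −350), with MM-401 narrower at 81 of 91 members and wider at 9. Over all autosomal DMSO WDR5 peaks with a partner in both lists, MM-401 was narrower than EtOH at 40.7% and wider at 54%. At members up to 750 bp this difference was 25 bp (0 to 50), with MM-401 wider at 125 and narrower at 96.

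Among the 5 widest members MM-401 was the lowest list except at chr11:48612851-48615025, and the order of EtOH and 4OHT varied. The widest, chr17:34254126-34257000, spanned 2875 bp in DMSO, 4 peaks summing to 1700 bp in MM-401, 3 peaks summing to 2725 bp in EtOH and 3 peaks summing to 3025 bp in 4OHT. At chr17:56751526-56754050, of 2525 bp, MM-401 had 1 peak of 850 bp, EtOH 3 peaks of 2100 bp in sum and 4OHT 3 peaks of 1975 bp. At chr8:125625576-125627800, of 2225 bp, the widths were 750 bp in MM-401, 1775 bp in EtOH and 1475 bp in 4OHT. At chr7:88488751-88490950, of 2200 bp, MM-401 had 3 peaks of 950 bp in sum, EtOH 1 peak of 1975 bp and 4OHT 2 peaks of 2150 bp. MM-401 was the lowest list at all of these regions, while 4OHT lay above EtOH at the first and the last of them. At chr11:48612851-48615025, of 2175 bp, the 4OHT width of 925 bp was below the 1225 bp of MM-401 and the 1400 bp of EtOH. An exception in the other direction was chr1:90173051-90174525, of 1475 bp in DMSO, where MM-401 had 1 peak of 2325 bp, EtOH 3 peaks of 650 bp in sum and 4OHT 3 peaks of 1075 bp.

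To compare MM-401 with DMSO without choosing on the DMSO width, sites were chosen in each WDR5 list in turn. At sites over 500 bp the sign followed the choosing list. MM-401 minus DMSO was −325 bp at DMSO-wide sites and 125 bp (100 to 150) at MM-401-wide sites. Of those 399 MM-401-wide sites DMSO overlapped 375, or 94.0% (91.2 to 95.9%), against 34.3% of all MM-401 WDR5 peaks. At sites wide in EtOH, a list outside the comparison, 402 of 881 sites had a peak in both, and the difference was −125 bp (−175 to −75). It was −25 bp (−75 to 0) over all 881 sites with absent peaks counted as 0 bp, and −412.5 bp (−550 to −300) at sites over 750 bp. At the 402 sites over 500 bp with a peak in both, MM-401 was narrower at 282 and wider at 98. That is 70.1% narrower, against 49.8% over all EtOH WDR5 peaks. At sites wide in 4OHT it was −75 bp (−125 to −50) at 334 of 814 sites, with 217 narrower and 92 wider, 65.0% against a background of 50%.

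At sites over 1000 bp MM-401 was narrower whichever list chose them. The difference was −725 bp (−825 to −625) at DMSO-chosen sites, −625 bp (−750 to −425) at MM-401-chosen sites, −662.5 bp (−750 to −575) at EtOH-chosen sites and −650 bp (−750 to −550) at 4OHT-chosen sites. MM-401 was the narrower list at 89 of 91, 22 of 25, 79 of 86 and 64 of 68 of these sites, against 44.2%, 47.7%, 49.8% and 50% over all peaks of the choosing lists. EtOH was also narrower than DMSO at these sites, by a smaller median, with EtOH minus DMSO at −325 bp (−375 to −250), −300 bp (−525 to −150), −175 bp (−300 to −25) and −225 bp (−325 to −75) in the same order of choosing lists. The 4 sets share sites, since 23 of 25 MM-401 peaks, 67 of 101 EtOH peaks and 55 of 93 4OHT peaks over 1000 bp overlapped a member over 1000 bp. The value at DMSO-chosen sites is in part set by that choice, and the 1000 bp cut was made after the widths had been seen. All MM-401 minus DMSO values rest on the same 2 libraries, and the part that their depth took in the difference was not tested.

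**Figure D3:**
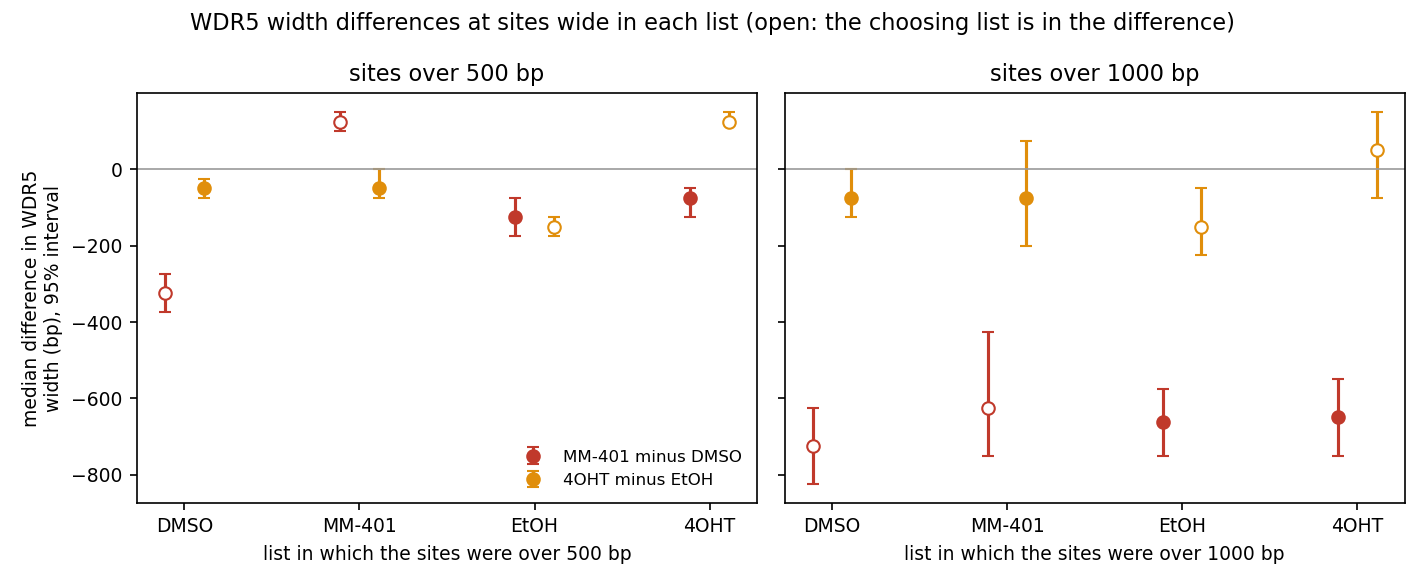
Median difference in summed WDR5 width in bp (vertical axis, bars are 95% binomial intervals) for MM-401 minus DMSO and 4OHT minus EtOH, at sites over 500 bp (left) and over 1000 bp (right) in each of the 4 lists (horizontal axis). Open points mark differences that contain the choosing list; MM-401 minus DMSO lies between −725 and −625 bp at all 4 sets of sites over 1000 bp, and 4OHT minus EtOH between −150 and 50 bp.

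The WDR5 width under 4OHT was next set against that in EtOH, and at the widest sites the direction depended on the choosing list. At the 381 members with a peak in both lists, 4OHT minus EtOH was −50 bp (−75 to −25). The 4OHT peak was narrower at 222 members and wider at 138, or 58.3% narrower against 52% over all DMSO WDR5 peaks with a partner in both lists. At members over 1000 bp the difference was −75 bp (−125 to 0), with 53 narrower and 33 wider. When sites over 1000 bp were chosen in EtOH it was −150 bp (−225 to −50), with 4OHT narrower at 68 of 101 sites against 43.9% over all EtOH peaks. When they were chosen in 4OHT it was 50 bp (−75 to 150), with 41 of 93 narrower against 52.8%. At the 25 sites chosen in MM-401, a list outside the comparison, it was −75 bp (−200 to 75), with 15 narrower against 51%. The difference between this change and that under MM-401 was not tested.

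Part of the members appeared as several peaks in another list. Members under 2 or more peaks numbered 95 of 435 in MM-401 (21.8%, background 3.19%), 110 of 468 in EtOH (23.5%, 5.2%) and 116 of 426 in 4OHT (27.2%, 5.82%). The gaps between the pieces were short, with medians of 100, 100 and 125 bp, and 78 of 106, 95 of 125 and 97 of 135 gaps were at most 200 bp. When the peaks of every list were joined across gaps up to 200 bp, the split shares were 9.36%, 9.80% and 9.65%. A wider peak has more room for pieces, and split members had median widths of 775, 775 and 825 bp against 625 bp for members under a single peak. Of the 232 members split in any list 6 were split in all 3. MM-401 and EtOH shared 25 split members, MM-401 and 4OHT 32, and EtOH and 4OHT 38. The member split most at small width was chr2:168056476-168057025, of 550 bp, under 4 EtOH peaks of 500 bp in sum and no MM-401 or 4OHT peak.

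MLL1 was called at a minority of the members, and more often than at DMSO WDR5 peaks as a whole. Wider regions have more room to share 1 bp with an MLL1 peak, so this difference is in part set by the width rule. How large that part is was not tested. The DMSO MLL1 list overlapped 54 members, or 9.91% (7.67 to 12.7%), against 3.36%. The MM-401 MLL1 list overlapped 123, or 22.6% (19.3 to 26.3%), against 6.26%. These 2 lists came from different peak callers and are not compared with each other. Both lists overlapped 22 members, 4.04% against 0.511%. DMSO WDR5 peaks over 300 and up to 500 bp were overlapped at 4.83% by the DMSO MLL1 list and 8.43% by the MM-401 MLL1 list. At members over 1000 bp the shares were 13.0% (7.62 to 21.4%) for the DMSO list and 33.7% (24.9 to 43.8%) for the MM-401 list. The MLL1 peaks were much narrower than the members, with median widths of 210.5 bp in DMSO and 150 bp in MM-401, and 35 of 56 and 99 of 144 lay wholly inside a member. Within 2 kb an MLL1 peak was found at 117 members in DMSO, 21.5% against 16.7%, and at 268 in MM-401, 49.2% against 36.4%.

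The width that WDR5 kept was set beside the MLL1 calls. With MLL1 in the DMSO list the MM-401 ratio to the DMSO width was 0.64 (0.48 to 0.84) and without it 0.57 (0.52 to 0.60). With MLL1 in the MM-401 list it was 0.61 (0.52 to 0.68) and without it 0.57 (0.52 to 0.61). Both pairs of intervals overlapped. At the 20 members with MLL1 in both lists and an MM-401 WDR5 peak it was 0.88 (0.72 to 1), against 0.57 (0.52 to 0.61) at 306 members with MLL1 in neither. Without 3 neighbouring chr17 members that share partners, described further on, it was 0.84 (0.58 to 1) at 17 members, and the intervals overlapped. A higher ratio was not particular to MM-401. With MLL1 in both lists and in neither, the EtOH ratio was 0.79 (0.50 to 1) and 0.63 (0.58 to 0.69). The 4OHT ratio was 0.87 (0.39 to 1) and 0.58 (0.52 to 0.62), and the intervals of either list overlapped. The presence of WDR5 in MM-401 had overlapping intervals with and without MLL1. With MLL1 in DMSO it was 83.3% (71.3 to 91.0%) and without it 79.4% (75.6 to 82.8%). The widest members with MLL1 in both lists were chr17:34091151-34093150, with MLL1 peaks of 179 bp in DMSO and 150 bp in MM-401, chr17:35378101-35379775, with 296 and 150 bp, and chr1:90173051-90174525, with 2047 and 650 bp. In all, 15 members were overlapped in each of the 9 other lists, 2.75% against 0.154%.

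Nearly all members shared at least 1 bp with an H3K4me2 peak. The DMSO list overlapped 532 members (97.6%, background 89%), MM-401 541 (99.3%, 92.9%), EtOH 540 (99.1%, 91.6%) and 4OHT 537 (98.5%, 89.1%), and 529 had H3K4me2 in all 4 conditions (97.1%, 83.6%). The exceptions in every condition were chr5:18815401-18816225, chr5:130138201-130138900, chr12:112798901-112799600 and chr10:99049326-99049875. All 4 had WDR5 in every list. The first measured 825 bp in DMSO, 775 bp in MM-401, 775 bp in EtOH and 550 bp in 4OHT. Fewer members were covered whole by 1 H3K4me2 peak, which is harder for a wider region. The shares were 49.4% in DMSO (background 72.9%), 69.5% in MM-401 (82.9%), 85.1% in EtOH (85.5%) and 61.8% in 4OHT (77.7%).

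H3K4me2 of DMSO covered the centres of the members less often than positions 500 bp away. Its peaks covered the central base of 397 members, or 72.8% (69.0 to 76.4%), below the 80.6% over all DMSO WDR5 peaks. Coverage rose with distance from the centre to 80.8% at 250 bp and 86.8% at 500 bp. The lower share at the centre was found at the wider members. Up to 750 bp 296 of 375 centres were covered, near the 78.5% of DMSO WDR5 peaks over 300 and up to 500 bp. At members wider than 750 bp the share was 59.4% (51.9 to 66.5%). Of the 148 uncovered centres 97 lay in a gap between H3K4me2 peaks. The other conditions showed higher coverage of the centre than DMSO. MM-401 covered 499 centres, 91.6% (88.9 to 93.6%) against a background of 88.2%. EtOH covered 526, 96.5% (94.6 to 97.8%) against 88.9%. 4OHT covered 472, 86.6% (83.5 to 89.2%) against 83.6%.

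Coverage of the centre in DMSO was lowest at the widest members. Of the 92 members over 1000 bp, H3K4me2 covered the centre at 42 in DMSO, 84 in MM-401, 88 in EtOH and 70 in 4OHT. In DMSO coverage at these members was 45.7% (35.9 to 55.8%) at the centre, 82.1% at 500 bp and 90.2% at 1000 bp. In 4OHT it was 76.1%, 88.0% and 91.8%. In EtOH it was 95.7% at the centre and 95.1% at 1000 bp, with no dip at the centre. These values cover single positions, and 27 of the 92 were still touched by 2 or more EtOH H3K4me2 peaks. DMSO was also lowest and 4OHT next at sites over 1000 bp chosen in EtOH. Of these 101 sites 67 overlapped a member over 1000 bp, so the 2 sets are largely the same. At the 101 sites over 1000 bp in EtOH, centres were covered at 32.7% in DMSO (24.3 to 42.3%), 85.1% in MM-401 (76.9 to 90.8%), 83.2% in EtOH (74.7 to 89.2%) and 59.4% in 4OHT (49.7 to 68.5%). Over all EtOH WDR5 peaks these shares were 44.8%, 49.4%, 53.1% and 48.2%. At the 881 EtOH sites over 500 bp they were 48.2%, 74.7%, 83.3% and 69.6%. The DMSO share there was not below that over all EtOH peaks. At 1000 bp from the centre of the 101 sites coverage was 83.2% in DMSO, 84.2% in MM-401, 88.1% in EtOH and 85.6% in 4OHT.

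**Figure D4:**
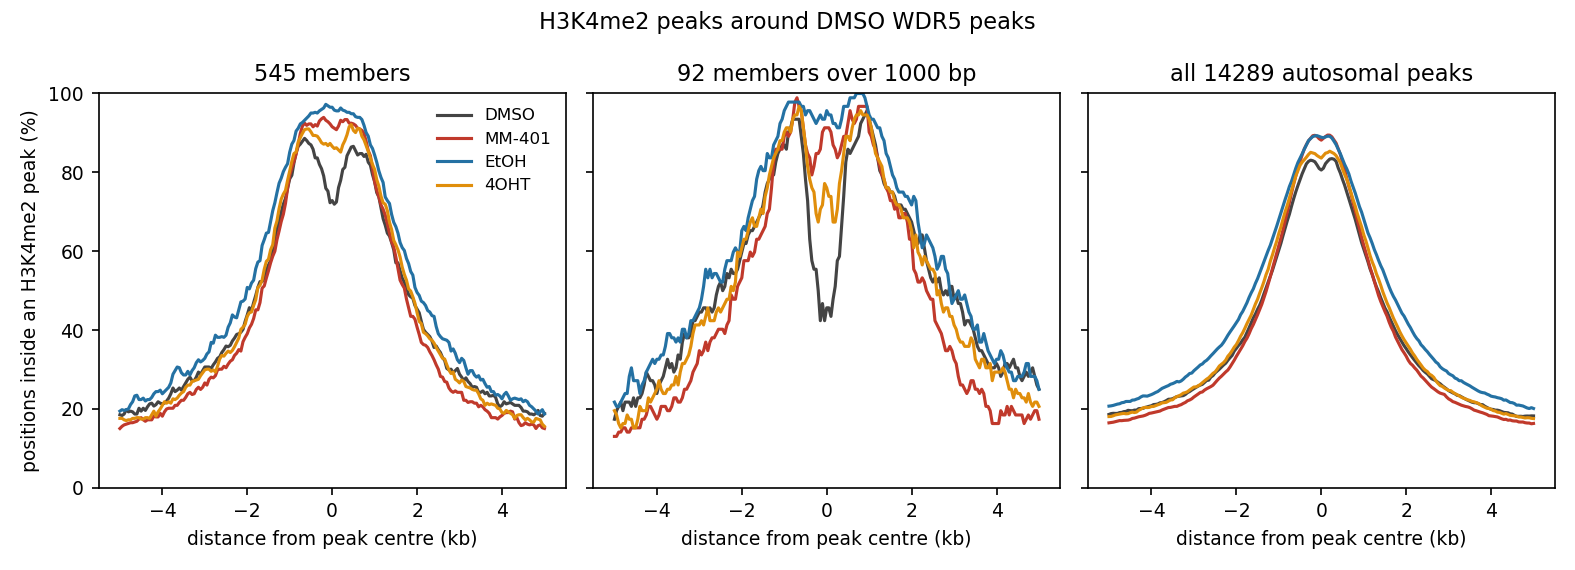
Percent of positions inside an H3K4me2 peak (vertical axis) by distance in kb from the centre of the DMSO WDR5 peak (horizontal axis), for the 545 members, the 92 members over 1000 bp and all 14289 autosomal peaks, with 1 line per condition. At the widest members the DMSO line falls to 45.7% at the centre between shoulders, the 4OHT line to 76.1%, and the MM-401 and EtOH lines stay at 91.3 and 95.7% there.

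Single members were then followed between conditions. From DMSO to MM-401, 106 members gained coverage of the centre and 4 lost it, 19.4% and 0.734% of members against backgrounds of 9.94% and 2.37%. From EtOH to 4OHT, 58 members lost it and 4 gained it, 10.6% and 0.734% against 6.9% and 1.62%. From DMSO to EtOH, 133 gained it and 4 lost it, 24.4% and 0.734% against 11.9% and 3.56%. Members touched by 2 or more H3K4me2 peaks numbered 172 in DMSO (31.6%, background 4.6%), 128 in MM-401 (23.5%, 3.3%), 61 in EtOH (11.2%, 1.55%) and 142 in 4OHT (26.1%, 3.45%). The bases left between those peaks had medians of 275, 162.5, 125 and 225 bp. At members over 1000 bp these counts were 76, 57, 27 and 69 of 92. When H3K4me2 peaks were joined across gaps of up to 500 bp, the centres covered were 86.6% in DMSO, 98.3% in MM-401, 98.9% in EtOH and 95.6% in 4OHT.

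Members were then split by whether DMSO H3K4me2 covered their centre. The EtOH WDR5 list overlapped 140 of 148 members with an uncovered centre, 94.6% (89.7 to 97.2%), and 328 of 397 with a covered centre, 82.6% (78.6 to 86.0%). The EtOH width ratios were 0.79 (0.73 to 0.83) and 0.60 (0.54 to 0.64). Their DMSO median widths were 737.5 and 625 bp, and among members up to 750 bp the EtOH shares were 89.9% (81.3 to 94.8%) and 78.0% (73.0 to 82.4%), with overlapping intervals. The ratios there, 0.70 (0.58 to 0.82) and 0.54 (0.52 to 0.61), also overlapped. In 4OHT the shares were 89.2% (83.2 to 93.2%) and 74.1% (69.5 to 78.1%), and the ratios 0.73 (0.67 to 0.80) and 0.50 (0.45 to 0.55). Among members up to 750 bp the 4OHT shares, 81.0% (71.0 to 88.1%) and 69.3% (63.8 to 74.2%), had overlapping intervals. The 4OHT ratios there, 0.67 (0.48 to 0.83) and 0.47 (0.41 to 0.52), also overlapped. In MM-401 the shares were 83.1% (76.3 to 88.3%) and 78.6% (74.3 to 82.3%), with overlapping intervals. The MM-401 ratios had the other order, 0.54 (0.48 to 0.60) at uncovered and 0.59 (0.55 to 0.62) at covered centres, and their intervals also overlapped.

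The host of a member is the H3K4me2 peak sharing most bases with it. Hosts had a median width of 2425 bp in DMSO (2300 to 2625), 2775 bp in MM-401 (2650 to 2875), 3650 bp in EtOH (3375 to 3975) and 2800 bp in 4OHT (2650 to 3000). MM-401 minus DMSO was 50 bp (0 to 150) over 532 members, with 285 hosts wider and 236 narrower, 53.6% and 44.4% against backgrounds of 55.9% and 41.6%. These shares lie near the background. The sign turned to −50 bp (−100 to 0) when H3K4me2 peaks were joined across gaps of up to 500 bp. 4OHT minus EtOH was −425 bp (−525 to −375) over 537 members, with 425 narrower and 103 wider, 79.1% and 19.2% against 74.7% and 23.6%. EtOH minus DMSO was 800 bp (625 to 1050) over 531 members, with 425 wider and 93 narrower. These were 80.0% and 17.5% against 77.9% and 20.5%, also near the background. By this median the control populations differed by more than either treatment from its control. With peaks joined across gaps of up to 500 bp, EtOH minus DMSO was 525 bp (425 to 600). 4OHT minus EtOH was then −450 bp (−500 to −375), and the intervals of their sizes overlapped. On chromosome 1 the 2 medians were 125 and −325 bp.

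**Figure D5:**
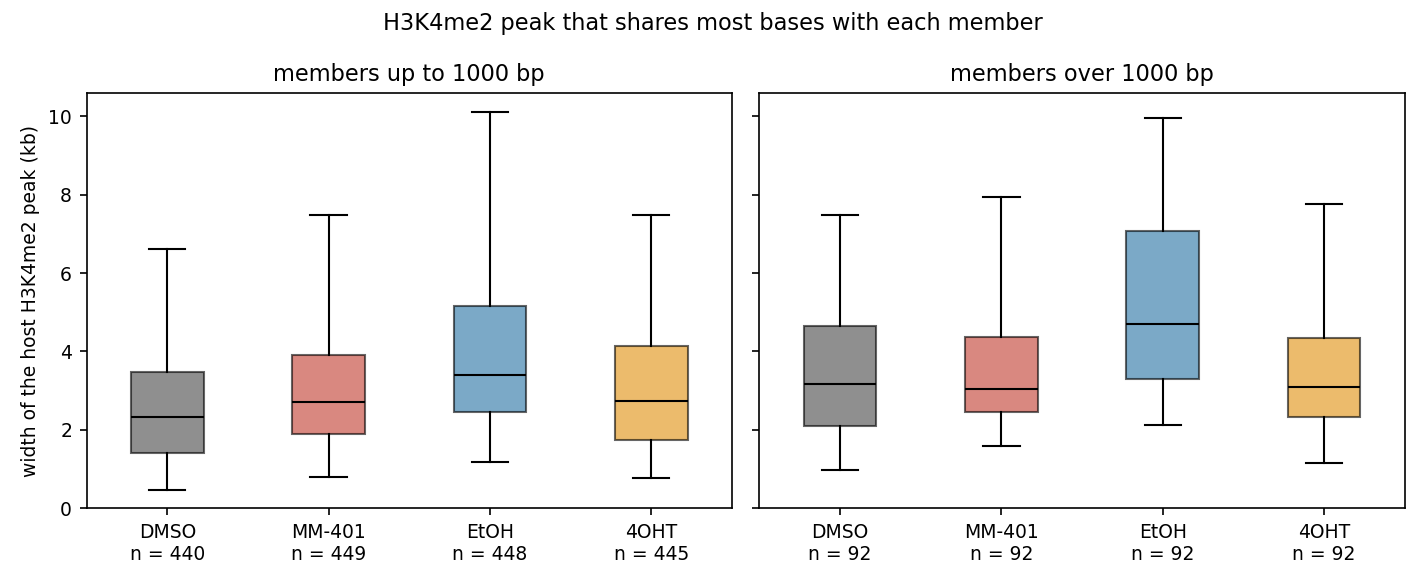
Width in kb of the H3K4me2 peak that shares most bases with each member (vertical axis) in DMSO, MM-401, EtOH and 4OHT, for members up to 1000 bp (left) and over 1000 bp (right). Boxes span the quartiles with the median as a line and whiskers the 5th to 95th percentile; the EtOH boxes are the highest, and at members over 1000 bp the medians were 3175, 3050, 4700 and 3100 bp.

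At members over 1000 bp the 4OHT minus EtOH difference in host width was −1287.5 bp (−1775 to −625), with 78 hosts narrower and 14 wider. These were 84.8% and 15.2%, against 74.7% and 23.6% over all autosomal DMSO WDR5 peaks. MM-401 minus DMSO was −100 bp (−175 to 300) at these members, with 48 narrower and 43 wider, 52.2% and 46.7% against 41.6% and 55.9%. At the widest member, chr17:34254126-34257000, the host measured 5325 bp in DMSO, 5150 bp in MM-401, 15125 bp in EtOH and 4800 bp in 4OHT, and the member was touched by 1 H3K4me2 peak in EtOH and 2 in 4OHT. At chr17:56751526-56754050 the widths were 3050, 2475, 9950 and 5625 bp. Both regions had the widest host in EtOH.

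The change in host width had overlapping intervals at members with and without a WDR5 call after treatment. MM-401 minus DMSO was 50 bp (0 to 150) at 425 members with an MM-401 WDR5 peak and 50 bp (−50 to 300) at 107 without. At members with an EtOH WDR5 peak, 4OHT minus EtOH was −475 bp (−625 to −400) at 376 with a 4OHT WDR5 peak and −325 bp (−600 to −150) at 87 without, with overlapping intervals. The largest loss of host width under MM-401 was at chr1:40147851-40148725, from 9500 to 1750 bp, where the WDR5 peak measured 875 bp in DMSO and 650 bp in MM-401. The largest gain was at chr13:53080701-53081475, from 4625 to 15750 bp. The largest loss under 4OHT was at chr5:123586551-123587125, from 29575 to 13425 bp.

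The largest gain of host width under 4OHT was at chr17:39984426-39985100, from 2000 to 6175 bp. This member shared partners with its neighbours chr17:39979826-39980750 and chr17:39980951-39981900. All 3 lay under 1 EtOH WDR5 peak of 6125 bp, 1 MM-401 MLL1 peak of 6100 bp and 1 4OHT H3K4me2 peak of 6175 bp. Their summed MM-401 WDR5 widths were 700, 875 and 950 bp. They count as 3 members in all values above unless left out by name.

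Chromosome 1 held more members than other DMSO WDR5 peaks. It carried 94 of 545, or 17.2% (14.3 to 20.6%), against 10.8% of all autosomal DMSO WDR5 peaks, but 5 of the 92 over 1000 bp. In the MM-401 list it carried 76 of 399 peaks over 500 bp, in EtOH 52 of 881 (5.90%) and in 4OHT 55 of 814 (6.76%). The width ratios of its members were 0.64 in MM-401 (0.57 to 0.74), 0.48 in EtOH (0.41 to 0.56) and 0.41 in 4OHT (0.36 to 0.48), against 0.56, 0.70 and 0.62 elsewhere. EtOH minus DMSO host width was 125 bp (−100 to 450) on chromosome 1 and 1050 bp (775 to 1350) on the other autosomes. The part of chromosome number or read depth in this was not tested. Elsewhere the members were scattered, and 10 lay within 5 kb of another member.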

How the data were processed

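The 10 ChIP lists of 14 samples were used, and the 4 inputs had no peak list here. The deposited files hold chromosome, start and end, with no signal, so no amount of binding was compared. Per the submitters' processing notes reads were aligned with Bowtie, and the build named is mm9. In 9 lists every peak carries an HPeak name and lies on a 25 bp grid, and starts were read as 1-based. The DMSO MLL1 list has neither, its caller was MACS according to the study, and its starts were read as 0-based. For HPeak the thresholds are not given in the sources used here. Lists were compared with Python 3.11.15, numpy 2.4.6 and scipy 1.17.1, figures drawn with matplotlib 3.10.9, and the overlap code was tested on simulated data and against bedtools 2.31.1. A member counts as overlapped from 1 shared bp, partner widths are summed over all overlapping peaks, and regions without a partner stay out of ratios and differences. Per comparison, background shares come from all autosomal peaks of the same list. Regions named are the 5 widest members, the extremes of each comparison and the exceptions, by a fixed rule. The members, classes and comparisons were chosen with earlier results of these data known. Each ChIP used 15 µl of antibody. The gene and sequence tables at hand follow another build (GRCm38), so genes and sequences were not used. Alternatives are listed in the closing section.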

Additional observations from a re-analysis of the deposited data

Results flagged for a closer look

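The change in H3K4me2 at the wide WDR5 peaks had opposite signs in the MAF9 pair and in the Mll1 flox pair. The share of member centres inside H3K4me2 moved by 18.7 percentage points from DMSO to MM-401 and by −9.91 points from EtOH to 4OHT. The median change in host width was 50 bp for MM-401 minus DMSO and −425 bp for 4OHT minus EtOH, and the first of these turned to −50 bp when H3K4me2 peaks were joined across gaps of up to 500 bp. The opposite signs were not particular to the members. Over all autosomal DMSO WDR5 peaks centre coverage was 80.6% in DMSO and 88.2% in MM-401, and 88.9% in EtOH and 83.6% in 4OHT. The median change in host width was 75 bp for MM-401 minus DMSO and −350 bp for 4OHT minus EtOH there. With 1 library per condition the difference between the pairs was not tested.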

How the results depend on the processing

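The 26 results were recomputed under 103 alternatives, and 56 values stayed within the interval given in the report. No paired analysis was possible because each condition and antibody had 1 library, so no library could be left out either. Counting peaks up to 2 kb apart as shared raised the WDR5 overlap to 87.2% in MM-401, 91.6% in EtOH and 88.1% in 4OHT, MLL1 to 21.5% in DMSO and 49.2% in MM-401, and H3K4me2 to 99.3% in both DMSO and 4OHT. Requiring 50% of the member to be covered lowered WDR5 to 44.6%, 54.5% and 39.8%, the DMSO share of wide MM-401 peaks from 94.0% to 75.2%, and H3K4me2 to 86.8% in DMSO, 97.6% in MM-401 and 95.4% in 4OHT. Cutting all WDR5 lists to the 14289 widest autosomal peaks gave 78.9% in EtOH and 69.2% in 4OHT, with MM-401 at 77.8%. Members wider than 750 bp gave overlaps of 87.1%, 97.6% and 92.4%, ratios of 0.77 in EtOH and 0.68 in 4OHT, split shares of 33.8%, 35.5% and 43.3%, MLL1 of MM-401 at 29.4%, H3K4me2 of DMSO at 99.4%, centres covered at 59.4% in DMSO and 81.8% in 4OHT, and host differences of −625 bp for 4OHT minus EtOH and 1375 bp for EtOH minus DMSO. With that cut, 100% of MM-401 peaks overlapped DMSO, and MM-401 minus DMSO at EtOH-wide sites was −412.5 bp. It was −25 bp over all 881 sites when an absent peak counted as 0 bp. The widest single partner gave ratios of 0.50, 0.58 and 0.48. Joining WDR5 peaks across gaps up to 200 bp gave ratios of 0.52 in both MM-401 and 4OHT and split shares of 9.36%, 9.80% and 9.65%. Joining H3K4me2 peaks across gaps up to 500 bp gave host differences of −50 bp for MM-401 minus DMSO, a change of sign, and 525 bp for EtOH minus DMSO, and centre coverage of 86.6%, 98.3%, 98.9% and 95.6%. Without chromosome 1 all 25 results tried stayed within their intervals. WDR5 width at members fell from EtOH to 4OHT under all 5 alternatives tried for it, and at EtOH-wide sites from DMSO to MM-401 under all 6. The centre alternatives, the sites chosen in 4OHT, the removal of the 3 chr17 members and the counting of absent peaks as 0 bp were added after the data had been examined. Depth is unknown, and none of these alternatives replaces a second library.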

Other observations

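A further DMSO WDR5 peak lay within 2 kb of 194 members, or 35.6%, against 32.7% over all autosomal DMSO WDR5 peaks, and within 200 bp of 15.2% against 11.3%. The median member filled 22.5% of its DMSO host H3K4me2 peak, and the 532 members with a host lay in 530 different peaks. Hosts of at least 5 kb held 66 members in DMSO, 77 in MM-401, 164 in EtOH and 94 in 4OHT. These were 12.4%, 14.2%, 30.4% and 17.5% of members with a host, near the 11.2%, 14.4%, 27.1% and 18.0% over all autosomal DMSO WDR5 peaks.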
